A study of Mus musculus with 59 samples.

Results

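The numbered zinc finger genes, named Zfp with a number, were followed in mouse embryonic stem cells (ESCs) while transcription was blocked. Of 332 such symbols among the 23974 genes of the decay table, 93 had a mean normalised read count of at least 10 over the 12 libraries and were taken as members. Zfp42 and Zfp36 also reached that mean and were left out by the choice of members, 237 symbols fell below it, and 49 of these were listed at 0 in every library. The members were chosen on that mean alone, except that Zfp870 and Zfp775 were singled out with their KO values known. Just inside the threshold lay Zfp84 (10.2), Zfp599 (10.3) and Zfp524 (10.3), and just outside it lay Zfp229 (9.86), Zfp580 (9.84) and Zfp39 (9.70). Only 8 of the 77 symbols with several transcripts were members, against 85 of the 255 with 1 transcript, so a numbered Zfp gene that is missing here was not shown to be silent. In 12 members the mean reached 10 in the KO libraries and not in the control libraries, and in 1 member (Zfp84) the reverse held.

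The series studies Zcchc8, a scaffold of the nuclear exosome targeting complex, which delivers nuclear RNA to the exosome for degradation. The ESC lines came from blastocysts of the BDF1 strain, were kept in serum, leukaemia inhibitory factor and the kinase inhibitors CHIR99021 and PD0325901, and were either control or knocked out for Zcchc8 (KO). Total RNA depleted of ribosomal RNA was sequenced from both genotypes at 0, 4 and 8 h in Actinomycin D (5 µg/ml), an inhibitor of transcription, with 2 replicates in each of the 6 groups. Nothing in the labels says that the replicates were separate cultures or how many KO clones were used, so the spread behind each p-value may be technical. Other samples of the series (47 of 59) were not analysed here.

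Most Zfp proteins bind DNA through tandem Cys2-His2 fingers, each of which holds a zinc ion and contacts a short stretch of bases. The largest subfamily carries a Krüppel-associated box (KRAB) at its N terminus, which recruits Trim28 and through it Setdb1, and many of its members silence retrotransposons in ESCs. KRAB zinc finger genes lie in clusters that arose by local duplication. Messenger RNAs of zinc finger transcription factors are known as short-lived in several mammalian cell types.

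Values below are the deposited normalised read counts, and changes are differences of log2(value + 1), which understate the change of low genes. Members were low: their median mean was 22.2, against 38.4 for the 6952 genes that passed the same filter, with a range from 10.2 to 909. The median member had 19 reads per library, from libraries of 465324 to 1364523 counted reads. Control 0 h replicate 2 lay above replicate 1 (median tested gene at 6.04 against 5.22 on the log2 scale). KO 8 h replicate 2 stood apart from its partner: the chi-square of their counts per degree of freedom was 13.3, against 3.50 to 4.19 in the other groups. Zcchc8 itself read 59.3 and 77.5 in control and 25.3 and 5.29 in KO at 0 h (log2 change −2.42, adjusted p = 0.0332, limma with Benjamini-Hochberg adjustment). The Zcchc8 level after 4 h of drug was 32.7 and 24.7 in control and 21.3 and 13.6 in KO (−0.71, adjusted p = 0.845), and at 8 h 7.57 and 11.3 in control and 9.56 and 3.78 in KO (−0.53, adjusted p = 0.638). The genotypes overlapped for Zcchc8 at 8 h, and it was called at 0 h alone. Of the 12 ESC markers examined, 9 were tested and none was called between genotypes, and Esrrb was listed at 0 in every library. Of 10 tested fibroblast or feeder markers, 5 were called higher in KO at 0 h, where 4.23% of all tested genes were. The summed level of the 15 listed fibroblast markers was 5325 and 8780 in control and 16669 and 12771 in KO at 0 h, with Sparc, Postn and Pdgfrb at 0 in every library. The 7 listed neural markers summed to 119.8 and 275 in control and 515 and 436 in KO at 0 h, with Pax6 and Map2 at 0, and 2 of 4 tested were called higher, beside the same 4.23% of all tested genes. The part of these shifts in any KO result below was not tested, and in such bulk samples fewer cells of a type and less RNA per cell cannot be told apart.

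The members took a smaller share of the RNA once transcription was blocked, in both genotypes. In control they held 0.736% and 0.731% of the library value without the ribosomal precursor Rn45s at 0 h, 0.434% and 0.456% at 4 h, and 0.421% and 0.421% at 8 h. In KO the shares were 0.784% and 0.784% at 0 h, 0.436% and 0.487% at 4 h, and 0.450% and 0.617% at 8 h. The 4 libraries at 0 h lay above all 8 later ones, and the highest later share belonged to KO 8 h replicate 2. Most of the drop in share had occurred by 4 h.

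**Figure D1:**
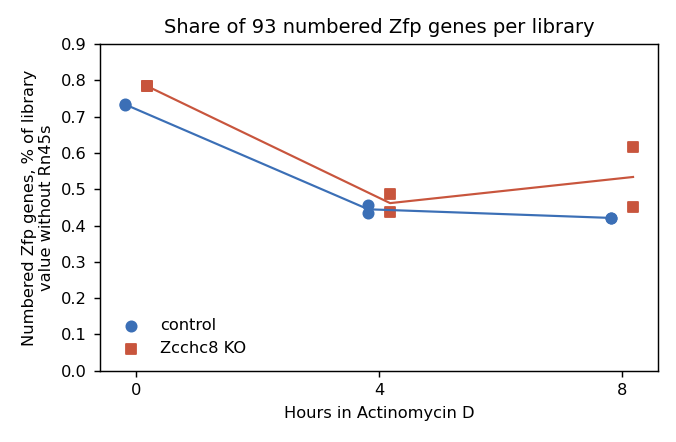
Summed normalised read count of the 93 members as a percentage of each library's total without Rn45s (y axis) against hours in Actinomycin D (x axis); each point is 1 library, 2 per group, and lines join group means. Replicates at 0 h lie almost on top of each other, and all 8 later libraries lie below the 4 at 0 h.

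In control cells the members fell early. Between 0 and 4 h, 34 of 93 members fell and none rose (limma, adjusted p below 0.05), where 11.8% of all tested genes fell and 0.489% rose. The count was 9 without control 0 h replicate 2, 5 without control 4 h replicate 1, 20 without control 4 h replicate 2 and 55 without control 0 h replicate 1. The median change of the members was −1.45, against −0.49 for all tested genes, and 89 members had a change below 0. On the scale of percent left, the median member kept 31.8% of its 0 h value at 4 h and 18.3% at 8 h, against 66.8% and 36.3% for all tested genes. Less than 25% was left at 4 h in 40 members (43.0%), against 11.9% of tested genes. These are medians over genes that passed a filter on the mean, members and background alike. Among the 34 members with a control mean of at least 50 at 0 h, where counts are firmer, the medians were 35.1% and 22.3%, against 66.5% and 34.1% for the 3466 tested genes of that level. Percent left in control is counted from that same 0 h mean, so this choice can lower it, for members and background alike.

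The later interval looked different. Between 4 and 8 h in control, 1 member fell and none rose, where 4.63% of tested genes fell, and the median change was −0.75 for members and −0.79 for all tested genes. The called member was Zfp534, a KRAB zinc finger gene, at 22.6 and 20.1 at 4 h and 1.08 and 6.32 at 8 h (log2 change −2.51, SE 0.705, adjusted p = 0.035, limma). Its replicates did not overlap between these times. Over the whole 8 h, 73 members fell and none rose, where 53.5% of tested genes fell and 0.503% rose, with a median change of −2.26 against −1.33. The count was 48 without control 0 h replicate 2 and 42 without control 8 h replicate 1.

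**Figure D2:**
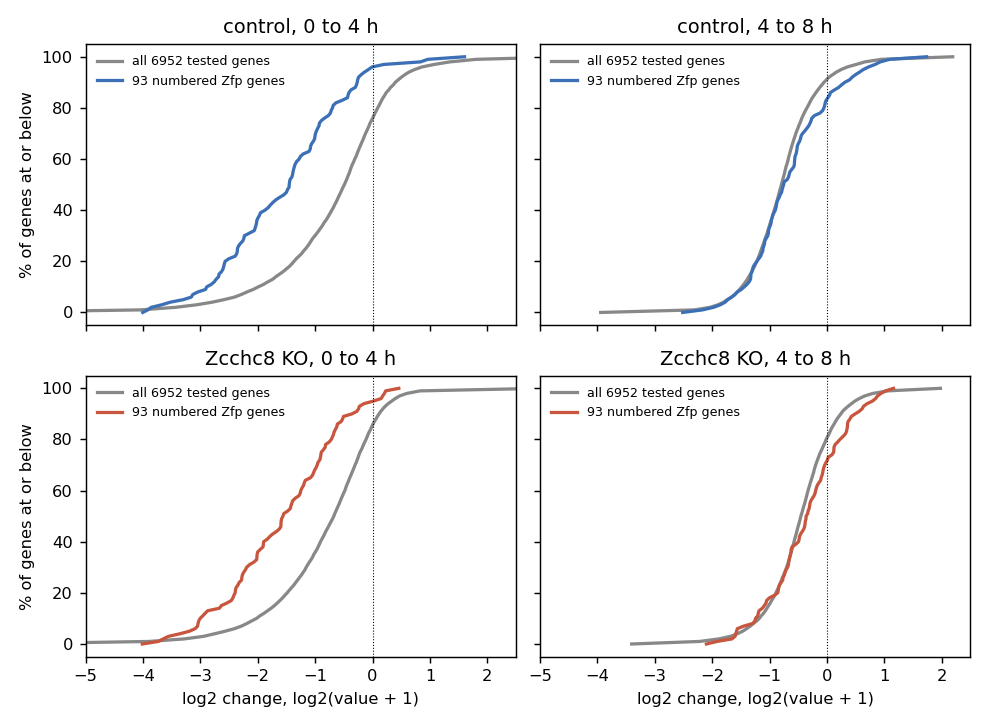
Cumulative percentage of genes (y axis) at or below each change in log2(value + 1) (x axis) for the 93 members (coloured) and all 6952 tested genes (grey), in control (top) and KO (bottom), for 0 to 4 h (left) and 4 to 8 h (right). The members' curve lies to the left of the grey curve over 0 to 4 h, with medians of −1.45 against −0.49 in control and −1.56 against −0.68 in KO, and close to it over 4 to 8 h.

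The deposited scale itself falls with time, so the members were also set against the median of all tested genes. In control the members' median lay 0.96 below the all-gene median over 0 to 4 h, 0.04 above it over 4 to 8 h and 0.94 below it over 0 to 8 h. After scaling the recovered reads by TMM, which puts the bulk of genes near a change of 0, the offsets were −0.97, −0.03 and −0.97. TMM scaling reduced the counts of members that fell to 22, 0 and 17 in these 3 intervals, where 6.78%, 0.115% and 11.2% of tested genes fell. No member rose in control on that scale, where 5.21%, 0% and 10.6% of tested genes rose.

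In KO cells the members fell early as well. Between 0 and 4 h, 35 members fell and none rose, where 14.4% of tested genes fell and 0.0288% rose, and the median change was −1.56, against −0.68. Of the 34 members called in control and the 35 called in KO, 20 were called in both (58.8% and 57.1%). These comparisons share no library, but they share the filter and the estimate of the spread, so they are not independent. Of all tested genes, 521 fell in both, which is 63.8% of the control calls and 52.2% of the KO calls. The KO count was 6 without either KO 0 h replicate, and 10 and 14 without KO 4 h replicate 1 or 2. Between 4 and 8 h no member was called by limma, where 0.0288% of tested genes fell. At an unadjusted p below 0.05, 9 members were lower and none higher in that interval, and DESeq2 and edgeR also called 0. Over 0 to 8 h, 58 members fell and none rose, where 40.5% of tested genes fell and 0.0575% rose, and 50 were called in both genotypes (68.5% of the control calls and 86.2% of the KO calls, where all tested genes had 58.7% and 77.4%). That KO count was 26 and 34 without KO 0 h replicate 1 or 2, and 35 without KO 8 h replicate 1. The median member kept 33.3% at 4 h and 25.7% at 8 h in KO, against 61.8% and 45.1% for all tested genes. The median offset from all tested genes was −0.89 over 0 to 4 h and −0.80 over 0 to 8 h in KO (−0.87 and −0.85 after TMM scaling). TMM scaling left 7 and 10 members falling, where 4.63% and 5.7% of tested genes fell, and 1 member rising in each, where 3.55% and 5.35% rose.

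The difference of the falls between genotypes was tested directly, as the genotype by time interaction. No member was called for 0 to 4 h or for 0 to 8 h by limma, edgeR or DESeq2, where 0.0144% and 0.0144% of tested genes were called higher. At an unadjusted p below 0.05, limma had 3 members lower and 1 higher for 0 to 4 h, and 3 lower and 6 higher for 0 to 8 h. Of the 6952 tested genes, 179 were lower and 42 higher for 0 to 4 h, and 159 lower and 259 higher for 0 to 8 h. Without control 0 h replicate 1, the 0 to 8 h difference was 4.28 for Zfp277, 1.73 for Zfp488 and 4.38 for Zfp867. In the main fit it was 3.44, 1.13 and 3.50, and not called. With 2 libraries a group the lack of calls does not show that the genotypes lost these RNAs alike.

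Among the members with a control mean of at least 50 at 0 h, the largest losses over 8 h were those of Zfp13, Zfp646, Zfp553, Zfp397 and Zfp622. Zfp553 had the smallest standard error of these 5. In control it read 137 and 216 at 0 h, 15.3 and 31.7 at 4 h and 13.0 and 19.0 at 8 h, and in KO 185 and 222 at 0 h, 33.1 and 43.6 at 4 h and 23.6 and 41.6 at 8 h. In both genotypes the 0 h libraries lay far above all later ones, and the 4 h and 8 h libraries overlapped. The log2 change over 0 to 4 h was −2.91 in control (SE 0.477, adjusted p = 2.3e-05, limma) and −2.39 in KO (adjusted p = 0.000452), or −2.42 and −1.71 relative to the median gene. Exons of Zfp553 overlap exons of the protein-coding gene Sept1 on the other strand. Whether counting used the strand was not stated in the sources at hand, so reads of this pair, as of the 17 members with such an overlap, cannot be told apart.

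Zfp622, which acts in maturation of the large ribosomal subunit, read 97.5 and 171 at 0 h, 37.8 and 25.5 at 4 h and 16.8 and 13.1 at 8 h in control. In KO it read 212 and 209.8 at 0 h, 23.5 and 46.5 at 4 h and 14.7 and 16.4 at 8 h. The values of the 3 times did not overlap in control, and in KO the 8 h pair was also below the 4 h pair. Its log2 change over 0 to 8 h was −3.04 in control (adjusted p = 3.88e-06, limma) and −3.68 in KO (adjusted p = 2.05e-07), leaving 11.1% and 7.35%.

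Zfp13, a KRAB zinc finger gene, had the largest loss of these 5 in control: 30.3 and 90.4 at 0 h, 5.09 and 8.50 at 4 h and 3.24 and 0.452 at 8 h (log2 change −4.43 over 8 h, SE 0.728, adjusted p = 6.36e-06, limma). In KO it read 87.6 and 75.8 at 0 h, 19.1 and 7.75 at 4 h and 9.56 and 8.82 at 8 h (log2 change −3.02, adjusted p = 0.00159). Every later library lay below the 0 h libraries in both genotypes. Zfp646, a protein with 27 finger motifs, read 112 and 181 at 0 h, 13.1 and 38.6 at 4 h and 11.3 and 6.78 at 8 h in control, with 6.19% left at 8 h, but it overlaps Zfp668 and Prss53 on the other strand. Zfp397, which carries a SCAN-like motif, a dimerisation domain, read 38.2 and 171 at 0 h, 19.6 and 46.3 at 4 h and 10.8 and 6.32 at 8 h, and its wide 0 h pair overlapped the 4 h pair.

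At the other end were Zfp296, Zfp276, Zfp106, Zfp704 and Zfp367, the smallest losses among the 34. Zfp106, which encodes a large RNA-binding protein needed by motor neurons in mice, kept 83.0% in control at 4 h, the most of these 34 members. It read 539 and 824 at 0 h, 431 and 699 at 4 h and 251 and 324 at 8 h in control, and 531 and 573 at 0 h, 483 and 568 at 4 h and 398 and 437 at 8 h in KO. The 0 h and 4 h libraries overlapped in both genotypes. Over 0 to 4 h its log2 change was −0.28 in control (adjusted p = 0.701, limma) and −0.07 in KO (adjusted p = 0.925). The KO change was positive relative to the median gene (0.60), and after TMM scaling it passed as a rise (0.63, adjusted p = 0.0491). Over 0 to 8 h it fell in control on the deposited scale (−1.22, adjusted p = 0.00643) and had a positive change after TMM scaling (0.19, adjusted p = 0.521), and in KO the TMM change of 0.77 passed as a rise.

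Zfp276 and Zfp704 kept 79.3% and 67.4% in control at 4 h. Zfp276 read 338 and 724 at 0 h, 389 and 453 at 4 h and 179 and 229.9 at 8 h in control, and it overlaps Fanca and Vps9d1 on the other strand. Zfp704 read 98.8 and 239 at 0 h, 102 and 126 at 4 h and 49.2 and 90.3 at 8 h. Over 0 to 8 h both fell on the deposited scale (−1.28 and −1.19, adjusted p = 0.00798 and 0.0199, limma), but the sign turned after TMM scaling (0.12 and 0.20). Zfp367 was not called over 0 to 8 h (−1.15, adjusted p = 0.109) and also turned sign after TMM scaling (0.22). Zfp296, an ESC factor that aids reprogramming, belongs with these genes only by its 8 h value. It read 71.1 and 35.5 at 0 h, 5.09 and 11.6 at 4 h and 13.0 and 22.1 at 8 h in control, so it had fallen by 4 h (−2.55, adjusted p = 0.00491). The 8 h pair was higher and did not overlap the 4 h pair, but that change was not called (1.04, adjusted p = 0.240, limma). Zfp296 overlaps Gemin7 on the other strand.

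The 10 largest called falls of 0 to 4 h in control were those of Zfp655, Zfp84, Zfp217, Zfp263, Zfp628, Zfp786, Zfp808, Zfp282, Zfp553 and Zfp319. In KO they were those of Zfp26, Zfp526, Zfp870, Zfp324, Zfp655, Zfp84, Zfp808, Zfp296, Zfp217 and Zfp260. Zfp870 was chosen for its KO values and Zfp324 reached the filter mean in the KO libraries alone, so their KO falls are a description. Of the members that fell over 0 to 4 h, 2 in control and 2 in KO reached the filter mean in the KO libraries alone. Over 0 to 8 h, 7 in control and 2 in KO did. Zfp655, the largest in control, read 40.8 and 19.4 at 0 h and 0 and 2.32 at 4 h (log2 change −3.51 relative to the median gene, with an adjusted p of 0.00963 by limma for the change on the deposited scale). Its 4 h reads were 0 and 3, so the size of the fall is poorly fixed. Zfp26, the largest in KO, read 38.7 and 33.5 at 0 h and 1.68 and 0.969 at 4 h (−4.01, adjusted p = 0.00583), with 3 and 1 reads at 4 h. Zfp217, which encodes a transcription factor that supports ESC self-renewal, read 19.8 and 45.2 at 0 h and 3.64 and 0 at 4 h in control (−3.85, adjusted p = 0.00833).

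The 8 members with the highest means were Zfp488, Zfp106, Zfp276, Zfp202, Zfp335, Zfp704, Zfp598 and Zfp462. Zfp488, known as a factor of oligodendrocyte differentiation, had the highest mean (909) and changed by −1.39 in control over 0 to 4 h (adjusted p = 0.0174, limma) and −1.60 in KO (adjusted p = 0.0062). Zfp335, which is required in neural progenitors, read 203 and 281 at 0 h, 109.9 and 126 at 4 h and 42.2 and 68.2 at 8 h in control. No time overlapped another for Zfp335, and 48.7% and 22.8% were left, but it overlaps Pcif1 on the other strand. Zfp598, the ubiquitin ligase that marks collided ribosomes, read 154 and 275 at 0 h, 118 and 138 at 4 h and 49.2 and 70.9 at 8 h, with 59.8% and 28.0% left. Zfp462, a chromatin regulator with 33 finger motifs, the most of any member, read 112 and 216 at 0 h, 88.8 and 122 at 4 h and 42.7 and 44.7 at 8 h, with 64.2% and 26.6% left. These 3 kept more at 4 h than the median member.

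A list of 24 numbered Zfp genes of known role had 12 members. Of those 12, 5 fell over 0 to 4 h in control and 11 over 0 to 8 h, 7 and 10 fell in KO, and limma called none between genotypes at any time. Over the same intervals 11.8% and 53.5% of all tested genes fell in control, and 14.4% and 40.5% in KO. DESeq2 called 1 of the 12, Zfp106, lower in KO at 0 h. The exception in control was Zfp57, the KRAB protein that maintains imprints in ESCs. It read 7.90 and 3.23 at 0 h, 5.82 and 16.2 at 4 h and 4.86 and 8.13 at 8 h in control, on 6 and 1 reads at 0 h. In KO it read 18.5 and 30.0 at 0 h, 9.53 and 12.6 at 4 h and 1.91 and 13.9 at 8 h. The control values overlapped across all times (log2 change 0.25 over 0 to 8 h, adjusted p = 0.808, limma), and the sign turned without either control 0 h replicate 2 or control 8 h replicate 2 (−0.28 and −0.07). Zfp143, an activator bound at many promoters, read 31.6 and 32.3 at 0 h, 5.09 and 3.09 at 4 h and 2.70 and 5.42 at 8 h in control, with 12.8% left at 4 h. Zfp292 read 64.5 and 80.8 at 0 h, 18.9 and 32.4 at 4 h and 11.9 and 19.9 at 8 h in control, and 96.0 and 132 at 0 h, 10.7 and 18.4 at 4 h and 12.1 and 12.6 at 8 h in KO.

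The encoded proteins were read from GENCODE vM21 models for all 93 members. A KRAB-like motif was found in 28, a SCAN-like motif in 3, and no finger motif in 4, and the median number of finger motifs was 9. The search used fixed letter patterns, so a divergent box can be missed. Members with a KRAB-like motif had more fingers (median 11, against 7) and more often lay beside another zinc finger gene (21 of 28, against 14 of 65). Their median change over 0 to 4 h was −2.02 in control and −1.98 in KO, against −1.37 and −1.42 for the other members. Of the 28, 12 fell in control and 11 in KO, and of the 65, 22 fell in control and 24 in KO, where 11.8% and 14.4% of all tested genes fell. By number of fingers, the median 0 to 8 h change in control was −1.90 for the 21 members with 0 to 3, −1.88 for the 35 with 4 to 9 and −2.77 for the 37 with 10 or more. No test was made between these sets, whose members also differ in level.

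**Figure D3:**
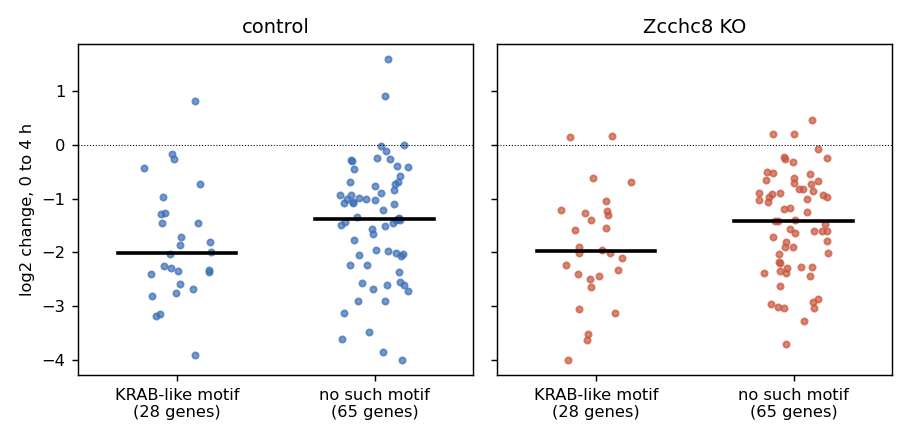
Change in log2(value + 1) from 0 to 4 h (y axis) for each of the 93 members, in control (left) and KO (right), split by whether the encoded protein holds a KRAB-like motif (28 genes) or not (65 genes); each point is 1 gene, bars are medians and the side scatter has no meaning. Both sets spread over more than 4 log2 units, with medians of −2.02 and −1.37 in control and −1.98 and −1.42 in KO.

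In other zinc finger families, the median change over 0 to 8 h in control was −2.04 for 18 tested Zbtb genes, of which 13 fell, and −2.71 for 10 tested Klf genes, of which 9 fell. Over that interval 53.5% of all tested genes fell, with a median of −1.33. All 3 tested Zscan and all 3 tested Zmym genes fell, with medians of −2.06 and −2.34. Over 0 to 4 h the median change was −1.43 for the Zbtb genes, of which 5 fell, and −1.84 for the Klf genes, of which 7 fell. For the KRAB cofactors and partners it was −0.35 in that interval, and 2 of 10 tested genes fell. All tested genes had a median of −0.49 and 11.8% of them fell, and the difference between these lists was not tested. Trim28, the corepressor that KRAB domains recruit, had a 0 to 4 h change of 0.05 in control (adjusted p = 0.958, limma) and −0.29 in KO (adjusted p = 0.637).

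Between genotypes, limma called few members, each of them higher in KO. At 0 h, 5 members were higher, where 4.23% of tested genes were called higher. At 4 h, 1 member was higher, where 0.748% were, and at 8 h, 8 members were higher, where 4.88% were. By limma no member was called lower at any time, where 0.0719%, 0.0% and 0.0144% of tested genes were. At an unadjusted p below 0.05 by limma, 0, 1 and 0 members were lower at 0, 4 and 8 h, where 38, 58 and 23 of the 6952 tested genes were. DESeq2 called Zfp106 lower at 0 h (−0.71, adjusted p = 0.0321) and Zfp276 lower at 4 h (−1.03, adjusted p = 0.0158). The members' median stood 0.41, 0.45 and 0.60 above control at 0, 4 and 8 h, near the 0.44, 0.29 and 0.63 of all tested genes. The shares of members called higher were 5.38%, 1.08% and 8.6% at 0, 4 and 8 h. Those at 0 and 4 h lay near the background, and that at 8 h lay above its 4.88%. Zfp870 and Zfp775 were chosen for their KO values, so the counts are not a result about the family. After TMM scaling the counts were 2, 1 and 3, where 1.35%, 0.69% and 1.44% of tested genes were higher, and none was lower, where 0.388%, 0.245% and 0.273% were. Leaving out KO 0 h replicate 1 reduced the 0 h calls to 1, and its partner to 2. Dropping any 1 of the 4 later control libraries gave 3. At 4 h the call was lost when KO 4 h replicate 2 was dropped, and a further member passed when any of 4 other libraries was (both control 0 h replicates, control 4 h replicate 2, KO 8 h replicate 1). At 8 h, 2 members were called when KO 8 h replicate 2 was dropped. Dropping a control 8 h library gave 3 or 4, and dropping a control 0 h library gave 14 or 13. Of the members called higher at 0, 4 and 8 h, 3, 1 and 2 reached the filter mean in the KO libraries alone.

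**Figure D4:**
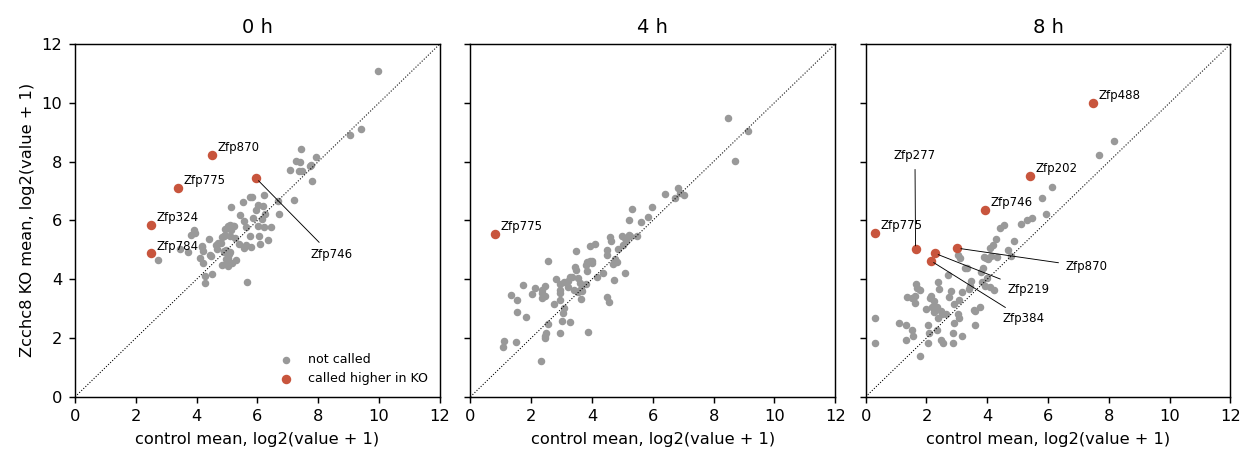
Group mean in KO (y axis) against group mean in control (x axis) of the 93 members on the log2(value + 1) scale, at 0, 4 and 8 h in Actinomycin D; red points were called higher in KO by limma (5, 1 and 8 members) and the dotted line marks equal values. Most members lie slightly above the line, as most tested genes do, and Zfp775 lies far above it at each time.

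Zfp870, a KRAB zinc finger gene with 10 finger motifs beside Zfp799 on chromosome 17, was high in KO before the drug and fell steeply. In control it read 27.7 and 16.2 at 0 h, 6.55 and 3.09 at 4 h and 6.49 and 7.68 at 8 h. In KO it read 271 and 329.7 at 0 h, 26.3 and 20.3 at 4 h and 22.9 and 41.6 at 8 h. Every KO library lay above both control libraries of its time. The fitted difference between KO and control was 3.76 at 0 h, 2.12 at 4 h and 1.99 at 8 h on the log2 scale, given as a description. After TMM scaling it was 3.30, 1.84 and 1.40. The 4 h difference was not called on either scale (adjusted p = 0.073 and 0.150, limma), and the 8 h difference was called on the deposited scale alone. Within KO 7.77% was left at 4 h, a log2 change of −2.96 relative to the median gene, and within control 22.0% was left, a change of −1.51. The fitted difference of the deposited-scale changes was −1.64 (SE 0.815), which was not called. Zfp799, its neighbour, read 7.90 and 12.9 in control and 11.8 and 15.9 in KO at 0 h, where the replicates overlapped.

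Zfp775, with 11 finger motifs and no KRAB-like motif, lies on chromosome 6 and had few reads in control. The exons of Zfp775 overlap those of the protein-coding models Gm44965 and Gm45021 on the same strand, and their part in its reads was not tested. Its control values were 9.22 and 9.69 at 0 h, 0.728 and 0.772 at 4 h and 0 and 0.452 at 8 h, with reads of 7 and 3 at 0 h, 1 and 1 at 4 h and 0 and 1 at 8 h. Its KO values were 141 and 134 at 0 h, 26.3 and 64.9 at 4 h and 38.2 and 55.4 at 8 h, with reads of 84 and 76 at 0 h, 47 and 67 at 4 h and 60 and 44 at 8 h. No control library reached the lowest KO library. Within KO, 33.1% was left at 4 h and 34.0% at 8 h. Neither fall was called (log2 changes −1.71 and −1.56, adjusted p = 0.104 and 0.077, limma), and the 4 h and 8 h pairs overlapped. The control counts are too few to set a loss beside these: 3 of the 4 later control libraries had 1 read.

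**Figure D5:**
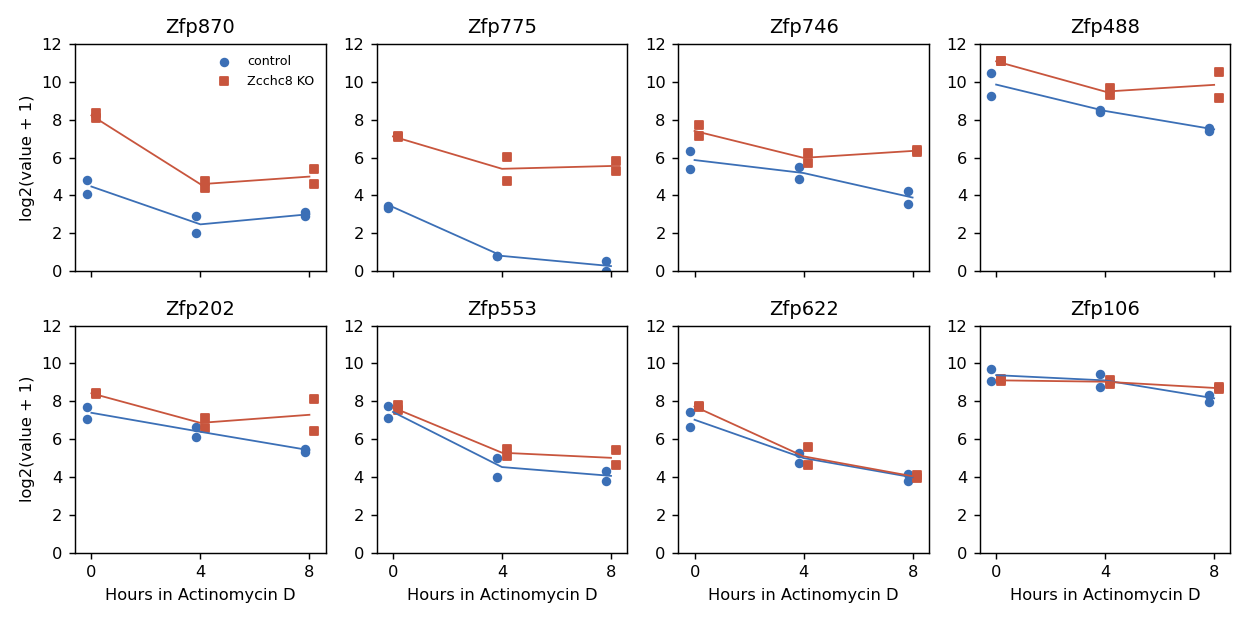
Level of 8 members on the log2(value + 1) scale (y axis) against hours in Actinomycin D (x axis); each point is 1 library, 2 per group, and lines join group means. Zfp870 and Zfp775 lie higher in KO at each time, Zfp488 and Zfp202 spread widely in KO at 8 h, and Zfp106 overlaps between 0 and 4 h in both genotypes.

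The other members called in KO were called at 0 h, at 8 h or at both times, and none at 4 h. At 8 h the differences of Zfp746 (2.46) and Zfp488 (2.35) were larger than that of Zfp870 (1.99). Zfp746, known as PARIS, a repressor of the gene for the mitochondrial coactivator PGC-1α, was called at 0 h and at 8 h. In control it read 40.8 and 80.8 at 0 h, 28.4 and 44.0 at 4 h and 10.8 and 17.6 at 8 h. In KO it read 207 and 138 at 0 h, 52.1 and 74.6 at 4 h and 77.1 and 84.4 at 8 h. The groups did not overlap at any time. The log2 difference was 1.54 at 0 h (SE 0.467, adjusted p = 0.0471, limma), 0.80 at 4 h (adjusted p = 0.618) and 2.46 at 8 h (SE 0.467, adjusted p = 0.000608). Relative to the median gene the 0 h and 8 h differences were 1.10 and 1.83. The 0 h call was lost in 15 of 20 alternatives, TMM scaling included (adjusted p = 0.0969), and the 8 h call held under TMM scaling (adjusted p = 0.00436).

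Zfp488 read 608 and 1408 at 0 h, 344 and 359.9 at 4 h and 171 and 187 at 8 h in control, and 2157 and 2176 at 0 h, 627 and 817 at 4 h and 564 and 1489.9 at 8 h in KO. KO lay above control at each time, but the KO 8 h replicates differed widely. At 8 h the log2 difference was 2.35 (SE 0.406, adjusted p = 0.000166, limma), and without KO 8 h replicate 2 it was 1.65 (adjusted p = 0.0712). Zfp202, whose human counterpart represses lipid metabolism genes and which carries a SCAN-like motif here, read 44.3 and 39.3 in control and 86.1 and 279.6 in KO at 8 h (1.87, adjusted p = 0.00658). Its high value also came from KO 8 h replicate 2, and the call was lost after TMM scaling (adjusted p = 0.106).

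Zfp384, Zfp277 and Zfp219 were called at 8 h on few reads. Zfp384, a nuclear matrix protein of bone-forming cells, read 0 and 6.78 in control and 27.4 and 20.2 in KO (3.14, adjusted p = 0.00974, limma). Zfp277, a partner of Polycomb proteins, read 3.78 and 0.452 in control and 8.29 and 54.2 in KO (3.10, adjusted p = 0.0242), and most of its KO level came from replicate 2. Zfp219, a cofactor of Sox9 in cartilage, read 2.70 and 4.97 in control and 21.7 and 35.3 in KO (2.61, adjusted p = 0.0297), and it overlaps Arhgef40 and Tmem253 on the other strand. The groups did not overlap in these 3 genes, yet none was called after TMM scaling. Without KO 8 h replicate 2, Zfp746 and Zfp775 were the members called at 8 h.

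Zfp324 and Zfp784 were called at 0 h against a control group with 1 library at 0. Zfp324, a KRAB zinc finger gene, read 9.22 and 0 in control and 53.9 and 59.9 in KO (4.18, adjusted p = 0.0152, limma), and its KO level fell to 11.8 and 0.969 at 4 h. Zfp784 read 9.22 and 0 in control and 26.9 and 30.0 in KO (3.20, adjusted p = 0.0375), and it overlaps Zfp865 on the other strand. At 4 h the Zfp784 groups overlapped, with 3.64 and 19.3 in control and 11.2 and 6.78 in KO. Neither call at 0 h held after TMM scaling, and both genes reached the filter mean through the KO libraries alone.

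The promoter windows of Zfp775, Zfp746 and Zfp488 are shown because these 3 members were called higher in KO at 8 h on both scales, which for Zfp775 is a description, as it was chosen for its KO values. Each runs from 250 bases before to 50 after the RefSeq start in build GRCm38.p6, 5′ to 3′ on the gene's strand, at chr6:48601757-48602056 (plus strand), chr6:48086544-48086843 (minus strand) and chr14:33978715-33979014 (minus strand). Capitals mark the box CCAAT, the GC box GGGCGG and the TATA motif TATAAA on either strand. On the other strand the first reads ATTGG, the second reads CCGCCC and the last reads TTTATA, and no match overlaps another.
Zfp775: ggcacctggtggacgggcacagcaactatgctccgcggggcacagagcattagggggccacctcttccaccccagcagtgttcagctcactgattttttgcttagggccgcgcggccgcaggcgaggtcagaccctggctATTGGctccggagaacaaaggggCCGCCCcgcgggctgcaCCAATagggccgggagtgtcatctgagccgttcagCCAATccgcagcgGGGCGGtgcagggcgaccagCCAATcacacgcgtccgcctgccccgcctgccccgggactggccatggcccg
Zfp746: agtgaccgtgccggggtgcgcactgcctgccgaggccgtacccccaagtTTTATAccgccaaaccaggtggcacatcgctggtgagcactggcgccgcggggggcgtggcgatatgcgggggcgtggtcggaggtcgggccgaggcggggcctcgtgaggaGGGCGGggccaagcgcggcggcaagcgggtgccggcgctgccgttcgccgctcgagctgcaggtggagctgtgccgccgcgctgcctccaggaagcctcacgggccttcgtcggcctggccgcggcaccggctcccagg
Zfp488: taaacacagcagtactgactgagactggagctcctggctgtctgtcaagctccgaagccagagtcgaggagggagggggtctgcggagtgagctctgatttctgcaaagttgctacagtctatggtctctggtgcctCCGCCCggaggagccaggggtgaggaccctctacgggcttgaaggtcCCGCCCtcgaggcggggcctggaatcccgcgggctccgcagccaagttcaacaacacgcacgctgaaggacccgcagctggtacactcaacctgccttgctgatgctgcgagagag
The Zfp775 window holds 4 CCAAT and 2 GGGCGG matches, the Zfp746 window 1 GGGCGG and 1 TATAAA match, and the Zfp488 window 2 GGGCGG matches. CCAAT is found in 37.4% of all 32851 RefSeq promoter windows of that length and in 44.4% of the 90 windows matched to members, GGGCGG in 35.7% and 57.8%, and TATAAA in 13.6% and 8.89%. Among windows of tested genes the shares are 37.1% for CCAAT, 66.6% for GGGCGG and 6.52% for TATAAA. The windows matched 73 of the 93 members, with Zfp870 not among them. A match describes letters in the window and not a bound site.

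Across the 12 libraries, the members whose log2 levels ran most like Zfp870 were Zfp961 (Pearson r = 0.919), Zfp775 (0.868), Zfp488 (0.837), Zfp7 (0.835) and Zfp771 (0.831). Most like Zfp775 were Zfp746 (0.903), Zfp488 (0.883), Zfp219 (0.875), Zfp870 (0.868) and Zfp961 (0.861). These are descriptions over 12 libraries that share genotype, time and library scale. Zfp961, a KRAB zinc finger gene, read 19.8 and 6.46 in control and 50.5 and 38.8 in KO at 0 h, without overlap, and was not called (1.86, adjusted p = 0.217, limma). Its exons overlap those of Cyp4f18 on the other strand.

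By position, 23 members lie on chromosome 7, 7 on chromosome 17, and 6 on each of chromosomes 2, 4, 5, 6, 8 and 9. The 6 members of chromosome 6, singled out after their values were seen, were Zfp282, Zfp384, Zfp746, Zfp775, Zfp777 and Zfp786. All 6 had a positive KO difference on the deposited scale at each time, from 0.39 to 3.73 at 0 h, 0.60 to 4.60 at 4 h and 0.91 to 5.29 at 8 h. Of them 2, 1 and 3 were called, each time with Zfp775, which was chosen for its KO values. These values are a description. Of all tested genes, 22.1%, 28.3% and 14.5% had a difference below 0 at these times, and 4.23%, 0.748% and 4.88% were called higher. After TMM scaling 5 of the 6 were above 0 at 0 h and all 6 at 4 and 8 h. Zfp777, which lies next to Zfp746, read 7.03 and 8.13 in control and 19.8 and 31.5 in KO at 8 h (1.60, adjusted p = 0.0754, limma), so its groups did not overlap and it was not called.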

How the data were processed

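The authors deposited a table of normalised read counts, a signal in which each library's counts per RefSeq transcript were divided by 1 factor. In every library 100% of values were whole multiples of the value of 1 read (tolerance 0.001 reads), so whole reads were recovered; 1 read was worth 0.452 to 3.23. Tools named by the submitters' processing notes are HTSeq 0.6.0, TopHat2 2.1.1 and DESeq2, with build mm9. What the factors rest on is not stated there. Spike-in RNA was added per the labels, and the table used here holds 0 spike-in rows, so no half-life is given.

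Of 33896 rows, 978 repeats were dropped, and transcripts were summed by symbol. Genes with a mean of at least 10 (6952) were tested with limma 3.58.1 (R 4.3.3; trend, robust) on log2(value + 1), with 6 group means, two-sided, and Benjamini-Hochberg adjustment over all tested genes, called below 0.05. The pseudocount was 1. The test was also run on simulated counts. Their spread was set in advance and not estimated from these libraries, so the error rate of the test here was not measured. Alternatives were TMM scaling and edgeR 4.0.16 or DESeq2 1.42.0 on the recovered reads, other pseudocounts, no filter, the compared groups alone, a replicate block and leaving out each library. The main fit did not treat samples with the same replicate number as pairs. Members, gene lists and tests were chosen with earlier results of these data known. Genes named are Zfp870 and Zfp775, up to 10 called per comparison and direction, the 8 highest, the 5 largest and smallest losses, threshold neighbours and a list of known roles. Finger, KRAB-like and SCAN-like motifs were searched in translated GENCODE vM21 models, and promoter windows are RefSeq's (GRCm38.p6).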

Additional observations from a re-analysis of the deposited data

How the results depend on the processing

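Counts of members called depended on the scale, the filter and the libraries in the fit. Shares of all tested genes are given above for the main fit and for TMM scaling. For the other settings, leaving out 1 library included, no such share is given. Whether those changes of count are particular to the members was therefore not tested. For KO higher at 0 h (5), the count was 3 with no filter, 2 with TMM, 3 with the compared groups alone, 2 with edgeR and 2 with DESeq2, and DESeq2 called 1 lower. At 4 h (1) it was 2 with the replicate block, 4 with the compared groups alone, 2 with edgeR and 2 with DESeq2, which called 1 lower, and at 8 h (8) it was 3 with no filter, 3 with TMM and 4 with DESeq2. Falls in control over 0 to 4 h (34) numbered 21 with no filter, 22 with TMM and 17 with the compared groups alone. Over 4 to 8 h (1) they numbered 0 with a pseudocount of 5, no filter, TMM or DESeq2, 10 with the block, 12 with the compared groups alone and 3 with edgeR. Over 0 to 8 h (73) they numbered 17 with TMM and 19 with DESeq2. In KO, falls over 0 to 4 h (35) numbered 18 with no filter, 7 with TMM, 59 with the compared groups alone and 13 with DESeq2, and over 0 to 8 h (58) 10 with TMM and 14 with DESeq2. TMM and DESeq2 each called 1 rise (Zfp106) in KO over 0 to 4 h and over 0 to 8 h. The cause was not tested.

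Leaving out 1 library gave 1 to 7 members higher in KO at 0 h, 0 to 2 at 4 h and 2 to 14 at 8 h. Falls ranged from 5 to 55, 0 to 12 and 42 to 78 in control over 0 to 4, 4 to 8 and 0 to 8 h, with 0 to 1 rises over 0 to 4 h and over 0 to 8 h. In KO they ranged from 6 to 47 over 0 to 4 h and from 26 to 70 over 0 to 8 h, and the 0 to 8 h difference gave 0 to 3. The other counts stayed at 0. Gene-wise deviations of same-numbered samples had correlations of −0.07 to 0.12 over 15 group pairs. A shift common to all genes of a library cannot show in such a correlation, so pairing was not excluded. The replicate block gave 6, 2 and 10 members higher in KO and 39, 10 and 78 falls in control.

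Of 1497 alternative values of 75 called results, 1276 kept side and direction, 215 kept direction alone and 6 turned sign. Signs turned over 0 to 8 h in control with TMM and DESeq2 for Zfp106 (0.19 and 0.15), Zfp276 (0.12 and 0.088), Zfp704 (0.20 and 0.20) and Zfp367 (0.22 and 0.14), and without 1 library for Zfp57 (range −0.28 to 0.79). Uncalled KO changes over 4 to 8 h ranged without 1 library from −0.013 to 0.82 for Zfp870 and from −0.49 to 0.78 for Zfp775. For Zfp775 the uncalled difference of the changes, KO minus control, was 0.87 for 0 to 4 h and 1.56 for 0 to 8 h. With a pseudocount of 5 it turned sign (−0.28 and −0.012). Its level in KO against control did not turn: the lowest log2 differences over the alternatives were 3.25, 3.03 and 3.29 at 0, 4 and 8 h, given as a description. A median of 19 reads per member and library limits all of these.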
